A study of Homo sapiens with 6 samples.

Results

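Transcripts of 8 enzymes of the pentose phosphate pathway and of cytosolic NADPH production were measured by RNA sequencing in MDA-MB-231, an established cell line from a human triple-negative breast cancer. The enzymes were picked by gene symbol, PGLS, PGD, RPIA, RPE, TKT, TALDO1, IDH1 and ME1, and each symbol matched 1 row of the 58735 genes in the deposited count table. All 8 passed the filter on low counts, which left 14975 genes to test. By the labels, 3 libraries (PM2.5) are of cells exposed to fine airborne particulate matter, and 3 libraries (Control) serve for comparison; RNA was taken after 48 h. The series is titled as a study of how PM2.5 exposure bears on malignant progression of this breast cancer subtype. The submitters call the libraries of a group biological replicates. Dose, vehicle and how separate the cultures were are not given in the sources at hand, so p-values measure the spread between these libraries, which may be technical. In both groups the cells are of 1 tumour line, and no second line or untreated time series is among the samples analysed here.

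The pentose phosphate pathway branches from glycolysis at glucose 6-phosphate. Its oxidative branch yields NADPH, the reductant for glutathione recycling and for lipid synthesis, and its non-oxidative branch interconverts sugar phosphates and supplies ribose 5-phosphate for nucleotides. Cytosolic isocitrate dehydrogenase and malic enzyme are further sources of NADPH outside the pathway. In human cancer cells the transcription factor NRF2 is known to raise PGD, TKT, TALDO1, ME1 and IDH1.

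Total counts ran from 31846136 to 34691009 per library. Control replicate 3 stood apart from Control replicates 1 and 2 on the second principal component, at 25.1 against -11.6 and -10.5. Some results that Control replicate 3 moves are therefore also given without it. The PM2.5 libraries were spread on this component too, at -1.01, 10.3 and -12.3 for replicates 1 to 3. HMOX1, known to be induced by particulate matter, averaged 51.3 ± 6.0 CPM (counts-per-million values, scaled by TMM) in the libraries labelled PM2.5 and 812 ± 58.2 CPM in the libraries labelled Control (SD, n = 3 each). Directions below are those of the libraries as labelled. Whether the labels of the groups were exchanged was not tested, and if they were, every rise and fall below would turn round. The line's 5 markers VIM, CD44, AXL, CAV1 and MSN summed to 8300.1 to 8927 CPM in PM2.5 libraries and 6310 to 7603 CPM in Control libraries, and 2 of them were called higher. CAV1 was the lowest of them, at 158 to 172 CPM in PM2.5 libraries and 74.6 to 82.3 CPM in Control libraries. The 7 markers that the line should lack summed to 4.10 to 4.78 CPM in PM2.5 libraries and 5.61 to 7.15 CPM in Control libraries, nearly all of it GATA3, which was called lower, with ESR1 at 0 in all 6. Of 5 leukocyte markers 3 were at 0 in all libraries, and all 5 summed, nearly all of it CD14, to 2.62 to 3.87 CPM in PM2.5 libraries and 1.2 to 2.32 CPM in Control libraries. The 4 endothelial markers summed to 53.5 to 58.4 CPM in PM2.5 libraries and 38.9 to 50.8 CPM in Control libraries, nearly all of it PECAM1, with CDH5 and CLDN5 at or near 0. The 4 fibroblast markers summed to 22.5 to 26.6 CPM in PM2.5 libraries and 18.3 to 26.5 CPM in Control libraries, with DCN at 0 in all libraries. COL1A2 had 0.482 to 0.633 CPM in PM2.5 libraries and 0 to 0.0585 CPM in Control libraries. Of the leukocyte, endothelial and fibroblast markers 1, 2 and 2 were tested. In each of these lists 1 was called higher, as were 16.1% of all tested genes. The part of these markers in the results was not tested.

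Promoter sequences are shown first for the enzymes whose promoters hold the core of the antioxidant response element, the DNA element to which NRF2 binds, and for TKT, which holds none and had the largest change of the 8. Each run is RefSeq's (GRCh38.p14), from 250 bases before to 50 bases after an annotated start, read 5′ to 3′ on the gene's strand. Capitals mark TGACNNNGC on either strand.
PGD promoter, chr1:10398814-10399113, plus strand: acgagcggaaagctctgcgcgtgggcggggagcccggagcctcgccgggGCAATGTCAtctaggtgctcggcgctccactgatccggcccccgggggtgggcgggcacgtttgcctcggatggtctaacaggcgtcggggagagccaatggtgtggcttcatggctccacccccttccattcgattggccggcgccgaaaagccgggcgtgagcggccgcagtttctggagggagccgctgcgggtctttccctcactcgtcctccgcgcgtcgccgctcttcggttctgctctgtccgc
TKT promoter, chr3:53255973-53256272, minus strand: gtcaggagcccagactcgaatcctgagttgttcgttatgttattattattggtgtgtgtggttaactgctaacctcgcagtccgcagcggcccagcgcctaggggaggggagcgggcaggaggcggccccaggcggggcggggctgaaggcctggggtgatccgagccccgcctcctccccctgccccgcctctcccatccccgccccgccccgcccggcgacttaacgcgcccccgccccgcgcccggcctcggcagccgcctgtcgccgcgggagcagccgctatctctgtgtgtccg
IDH1 promoter, chr2:208255022-208255321, minus strand: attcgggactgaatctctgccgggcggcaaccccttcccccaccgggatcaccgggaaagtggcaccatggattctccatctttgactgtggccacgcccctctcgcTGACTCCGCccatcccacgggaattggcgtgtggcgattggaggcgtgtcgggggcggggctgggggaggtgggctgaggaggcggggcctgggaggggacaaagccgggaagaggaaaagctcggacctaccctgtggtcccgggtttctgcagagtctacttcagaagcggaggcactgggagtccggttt
ME1 promoter, chr6:83431002-83431301, minus strand: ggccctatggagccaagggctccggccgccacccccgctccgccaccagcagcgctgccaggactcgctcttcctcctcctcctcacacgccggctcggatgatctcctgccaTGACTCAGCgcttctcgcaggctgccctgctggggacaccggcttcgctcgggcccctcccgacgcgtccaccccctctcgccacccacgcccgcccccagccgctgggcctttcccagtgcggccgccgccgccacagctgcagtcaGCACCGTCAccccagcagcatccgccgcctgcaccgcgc
RPE promoter, chr2:210002388-210002687, plus strand: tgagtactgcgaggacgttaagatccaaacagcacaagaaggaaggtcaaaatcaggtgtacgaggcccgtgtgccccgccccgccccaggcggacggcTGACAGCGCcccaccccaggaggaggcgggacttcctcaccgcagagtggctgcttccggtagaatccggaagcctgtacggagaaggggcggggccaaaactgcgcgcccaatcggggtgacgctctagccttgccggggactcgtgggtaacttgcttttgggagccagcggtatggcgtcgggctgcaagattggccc
The element was found in 4 of the 9 promoters of the 8 enzymes and in 13.3% of all 35116 promoters of the same length. The 9 promoters held 59.7% to 75% G or C and 17 to 44 CpG, against medians of 58.7% and 14 over all promoters; the part of base composition in the matches was not tested. Positions count from the start, negative before it. In PGD the match lay on the opposite strand at -201 to -193. In ME1 one match lay at -137 to -129 and another on the opposite strand at 12 to 20, and in RPE the match lay at -151 to -143. IDH1 has 2 annotated starts in RefSeq, and the one shown holds a match at -143 to -135. PGLS, TKT, TALDO1 and RPIA held no match. A longer form of the element with one more base, A, at its end, found in 3.18% of promoters, and the E-box CACGTG, found in 7.26%, were in none of the 8. A match is a description of the letters, not of binding.

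Of the 8 enzymes 5 fell in libraries labelled PM2.5, at an edgeR adjusted p under 0.05: TKT, PGD, PGLS, IDH1 and TALDO1. None was higher. The adjusted p-values here and below come from the quasi-likelihood test of edgeR, with Benjamini-Hochberg adjustment across every tested gene. Over all tested genes 15.8% were called lower and 16.1% higher, and 31.9% in either direction. The median log2 fold change was -0.42 over the 8 enzymes and -0.01 over all tested genes. Every PM2.5 library lay below every Control library for 6 of the 8 enzymes, as for 22.9% of all tested genes; in either direction the share was 44.3%. RPIA and RPE, the isomerase and the epimerase that handle ribulose 5-phosphate, did not pass the test, and neither did ME1.

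**Figure D1:**
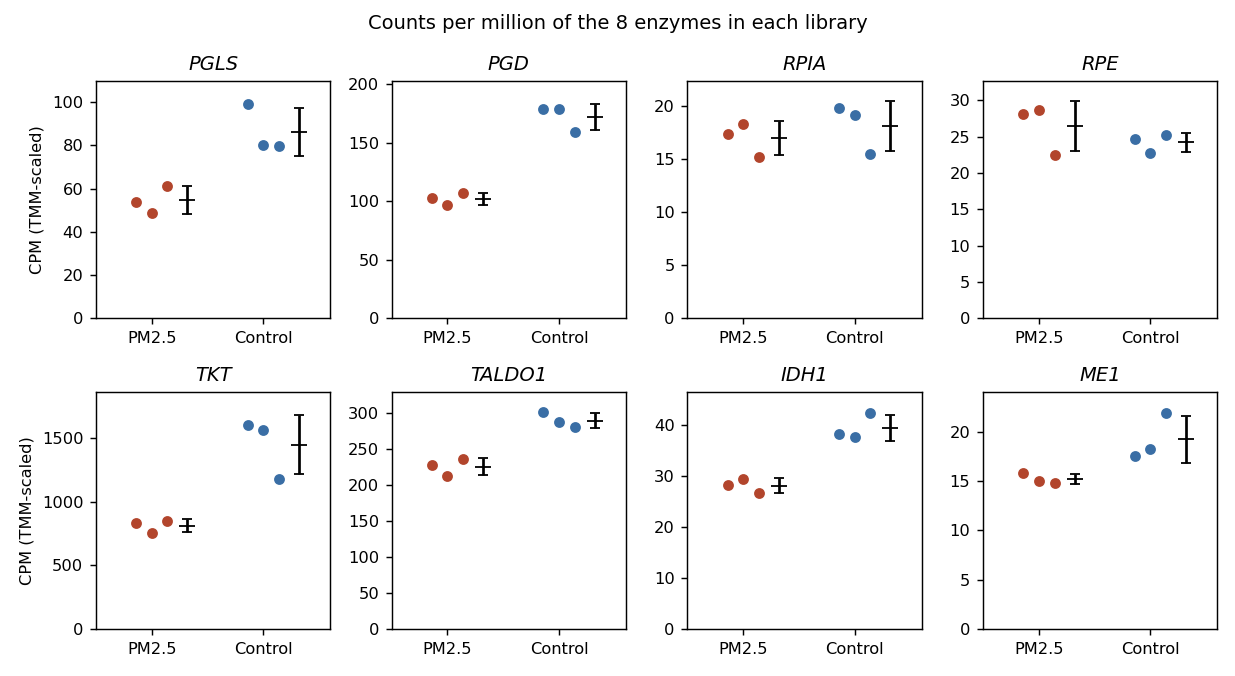
CPM (TMM-scaled, y axes from 0) of the 8 enzymes, one point per library, PM2.5 left and Control right; bars are the mean ± SD of 3 libraries. The groups are apart for PGLS, PGD, TKT, TALDO1, IDH1 and ME1 and mixed for RPIA and RPE, and Control replicate 3, the rightmost Control point, is the lowest of its group for TKT, at 1181 CPM.

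PGLS hydrolyses the lactone formed at the start of the oxidative branch. Its GRCh38 position is chromosome 19, bases 17511629 to 17521288, plus strand (ENSG00000130313). It had 53.8, 48.6 and 61.4 CPM in PM2.5 replicates 1 to 3, against 99.1, 80.3 and 79.6 CPM in Control replicates 1 to 3. Every PM2.5 library was below every Control library, and Control replicate 1 was the highest. The level fell 1.58-fold, a log2 change of -0.66 ± 0.11 (SE over 3 libraries a group, edgeR adjusted p = 0.000375). An antisense gene covers 9.17% of its exonic bases, and whether counting used strand is not given in the sources at hand.

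PGD, 6-phosphogluconate dehydrogenase, makes NADPH and ribulose 5-phosphate. The gene (ENSG00000142657) spans bases 10398592 to 10420144 of chromosome 1, plus strand. It had 103, 96.4 and 107 CPM in PM2.5 libraries, against 178, 179 and 159 CPM in Control libraries. The groups lay far apart, with the lowest value of the Control libraries in replicate 3. PGD fell 1.69-fold (log2 change -0.75 ± 0.09, SE, edgeR adjusted p = 1.55e-05), and the 95% interval of the log2 change ran from -0.95 to -0.56. No other gene's exons overlap its own.

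RPIA isomerises ribulose 5-phosphate to ribose 5-phosphate, the sugar of nucleotides. The gene (ENSG00000153574) spans bases 88691644 to 88750935 of chromosome 2, plus strand. Its values were 17.4, 18.3 and 15.2 CPM in PM2.5 libraries and 19.8, 19.1 and 15.5 CPM in Control libraries. The groups overlapped, and replicate 3 was the lowest in each. The log2 change was -0.09 (95% interval -0.38 to 0.19), which did not pass the test (edgeR adjusted p = 0.63). It was -0.20 without Control replicate 3 (edgeR adjusted p = 0.244).

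RPE turns ribulose 5-phosphate into xylulose 5-phosphate, a substrate of transketolase. The gene (ENSG00000197713) spans bases 210002565 to 210022259 of chromosome 2, plus strand. It had 28.1, 28.7 and 22.5 CPM in PM2.5 libraries and 24.6, 22.7 and 25.3 CPM in Control libraries. PM2.5 replicate 3 was the lowest of all 6, and the groups overlapped. The log2 change of 0.13 (95% interval -0.13 to 0.38) did not pass (edgeR adjusted p = 0.461), and its promoter holds the element shown above. Exons of KANSL1L on the opposite strand cover 23.8% of the exonic bases of RPE. Its retrogene copy RPEL1 had 3 to 11 counts in PM2.5 libraries and 3 to 21 counts in Control libraries and was too low to test.

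TKT, transketolase, is a thiamine-dependent enzyme that moves carbon units between sugar phosphates of the non-oxidative branch. The gene (ENSG00000163931) spans bases 53224707 to 53256052 of chromosome 3, minus strand. It had 835, 753 and 844 CPM in PM2.5 libraries, against 1597, 1563 and 1181 CPM in Control libraries. Control replicate 3 was the lowest Control library but still above every PM2.5 library. The fall was 1.79-fold (log2 change -0.84 ± 0.12, SE, edgeR adjusted p = 6.92e-05). Without Control replicate 3 the log2 change was -0.97. The paralog TKTL1 had at most 8 counts in any library and TKTL2 had 0 counts in all 6, which allows up to 0.0865 to 0.0942 CPM per library (3 counts of the total, covering counting error only).

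TALDO1, transaldolase, works beside transketolase in the return of pentoses to glycolysis. The gene (ENSG00000177156) spans bases 747329 to 765024 of chromosome 11, plus strand. It had 228, 212 and 235 CPM in PM2.5 libraries, against 300.2, 287 and 280.1 CPM in Control libraries. The groups did not overlap. The fall was 1.29-fold (log2 change -0.36 ± 0.09, SE, edgeR adjusted p = 0.00639), and without PM2.5 replicate 1 the call was lost (edgeR adjusted p = 0.0576), the adjusted p over the other alternatives being 0.0419 or less.

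IDH1 is the NADP-dependent isocitrate dehydrogenase of the cytosol and peroxisomes. The gene (ENSG00000138413) spans bases 208236227 to 208266074 of chromosome 2, minus strand. It had 28.3, 29.4 and 26.6 CPM in PM2.5 libraries, against 38.3, 37.6 and 42.3 CPM in Control libraries. Every PM2.5 library was below every Control library. The fall was 1.40-fold (log2 change -0.49 ± 0.10, SE, edgeR adjusted p = 0.002). Its mitochondrial counterpart IDH2, on chromosome 15, had 35.6 to 48.2 CPM in PM2.5 libraries and 33 to 45.8 CPM in Control libraries and did not pass (log2 change 0.08 ± 0.13, SE, edgeR adjusted p = 0.685).

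ME1, cytosolic malic enzyme, makes NADPH while turning malate into pyruvate. The gene (ENSG00000065833) spans bases 83210389 to 83431071 of chromosome 6, minus strand. It had 15.8, 15.0 and 14.8 CPM in PM2.5 libraries, against 17.5, 18.2 and 21.9 CPM in Control libraries. The groups did not overlap in CPM, and Control replicate 3 was the highest. The log2 change of -0.34 ± 0.13 missed the threshold (SE, 95% interval -0.61 to -0.07, edgeR adjusted p = 0.0538). Without Control replicate 3 it was -0.24 (edgeR adjusted p = 0.152), and DESeq2 called it at adjusted p = 0.0492; over all alternatives the adjusted p ran from 0.0492 to 0.152. The mitochondrial malic enzymes ME3, at 39.1 to 46.6 CPM in PM2.5 libraries and 41.1 to 43.6 CPM in Control libraries, and ME2, at 5.22 to 8.17 CPM in PM2.5 libraries and 5.42 to 7.22 CPM in Control libraries, did not pass.

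**Figure D2:**
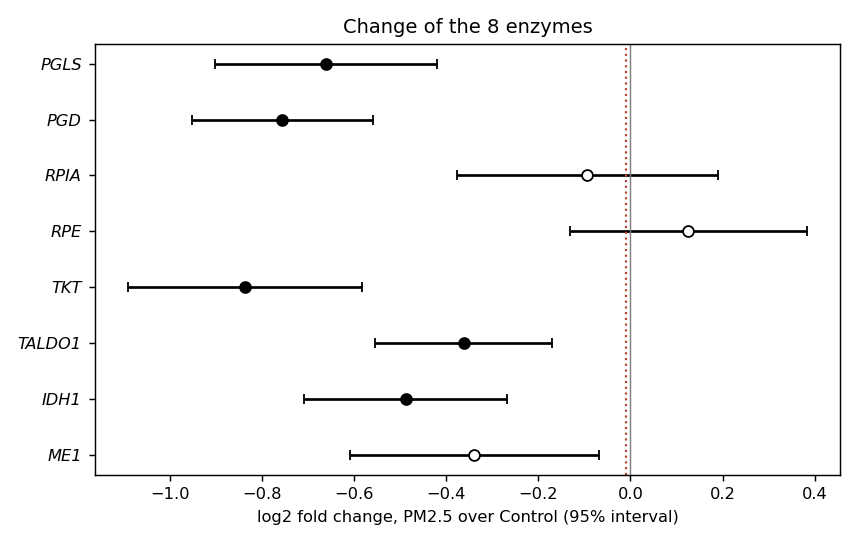
Log2 fold change of each enzyme, PM2.5 over Control (x axis), with its 95% interval; filled points passed edgeR's test and open points did not, and the dotted line is the median of all tested genes, -0.01. TKT lies farthest to the left at -0.84, and the intervals of RPIA and RPE span 0.

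Levels of different genes were compared as TPM (transcripts-per-million values), which divide by gene length and carry no TMM scaling. TKT was the highest of the 8 in both groups, at 303 ± 9.13 TPM in PM2.5 libraries and 479.5 ± 46.8 TPM in Control libraries (SD, n = 3 each). TALDO1 followed at 266 ± 5.24 TPM in PM2.5 libraries and 305 ± 13.6 TPM in Control libraries. PGD came next at 122 ± 2.38 TPM in PM2.5 libraries and 184 ± 1.21 TPM in Control libraries, and then PGLS at 68.2 ± 6.0 TPM in PM2.5 libraries and 95.9 ± 9.55 TPM in Control libraries. These 4 did not overlap with one another in either group. RPIA, RPE, IDH1 and ME1 were lower, at 32.8 ± 4.02, 26.8 ± 4.17, 21.2 ± 1.74 and 16.1 ± 0.77 TPM in PM2.5 libraries and 30.9 ± 1.99, 21.9 ± 2.49, 26.6 ± 3.58 and 18.2 ± 3.56 TPM in Control libraries. Neighbours in this order whose libraries overlapped were RPIA and RPE in the PM2.5 group, RPE and IDH1 in both groups, and RPIA and IDH1, and RPE and ME1, in the Control group. RPIA, which was not called, was lower in the PM2.5 libraries by mean CPM and higher by mean TPM, and for ME1 the libraries overlapped in TPM. IDH2, at 52.2 ± 6.48 TPM in PM2.5 libraries and 43.9 ± 4.80 TPM in Control libraries, lay above IDH1 in every library. ME3, at 40.6 ± 2.56 TPM in PM2.5 libraries and 34.8 ± 2.19 TPM in Control libraries, lay above ME1.

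**Figure D3:**
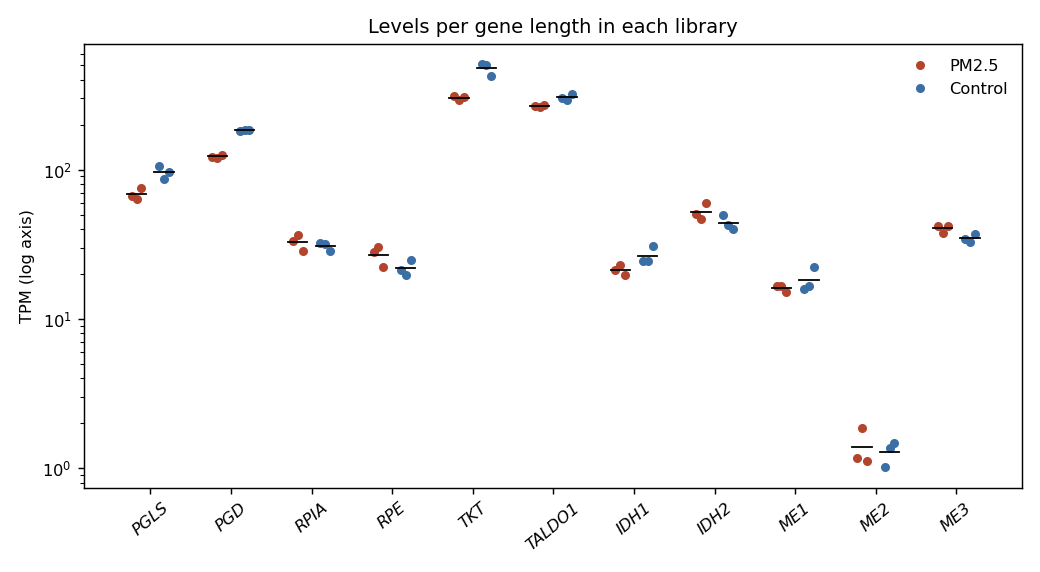
TPM (log axis) of the 8 enzymes and the mitochondrial counterparts IDH2, ME2 and ME3 in each library, PM2.5 left of Control for each gene, with black lines at group means. TKT and TALDO1 are highest, and ME2 is lowest at 1.38 TPM in PM2.5 libraries and 1.28 TPM in Control libraries.

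Of the summed TPM of the 6 pathway enzymes, TKT took 37.0% ± 0.501 in PM2.5 libraries and 42.9% ± 2.99 in Control libraries, and TALDO1 32.5% ± 0.21 in PM2.5 libraries and 27.3% ± 1.98 in Control libraries (SD, n = 3 each). RPIA took 4.01% ± 0.553 in PM2.5 libraries and 2.77% ± 0.0948 in Control libraries, and RPE 3.27% ± 0.552 in PM2.5 libraries and 1.96% ± 0.28 in Control libraries. Within a library, a ratio of 2 enzymes does not depend on library scaling. TKT over TALDO1 was 1.16, 1.12 and 1.13 in PM2.5 libraries, against 1.68, 1.72 and 1.33 in Control libraries. TKT over RPIA was 9.32, 8.0 and 10.8 in PM2.5 libraries, against 15.7, 15.9 and 14.8 in Control libraries. PGD over RPE was 4.35, 3.99 and 5.65 in PM2.5 libraries, against 8.60, 9.35 and 7.48 in Control libraries. IDH1 over IDH2 and ME1 over ME3 were also lower in every PM2.5 library than in any Control library, with mean ratios for IDH1 of 0.413 in PM2.5 libraries and 0.614 in Control libraries, and for ME1 of 0.397 in PM2.5 libraries and 0.521 in Control libraries. For these 5 of 8 pairs the two-sided exact permutation p was 0.1, the smallest that 3 libraries against 3 allow (0.16 after Benjamini-Hochberg adjustment over the 8 pairs), so none can pass 0.05. Among single tested genes 44.3% did not overlap between groups. The share over other gene pairs was not computed, so the count of 5 is no result about these enzymes. PGD over PGLS, PGD over TKT and RPE over RPIA overlapped between groups (exact permutation p = 0.4 for each). Control replicate 3 alone made the overlap of the last 2. PGD over TKT was 0.395, 0.410 and 0.406 in PM2.5 libraries, against 0.358, 0.367 and 0.433 in Control libraries. RPE over RPIA was 0.847, 0.823 and 0.774 in PM2.5 libraries, against 0.654, 0.623 and 0.858 in Control libraries. Without Control replicate 3 both were higher in every PM2.5 library than in any Control library.

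**Figure D4:**
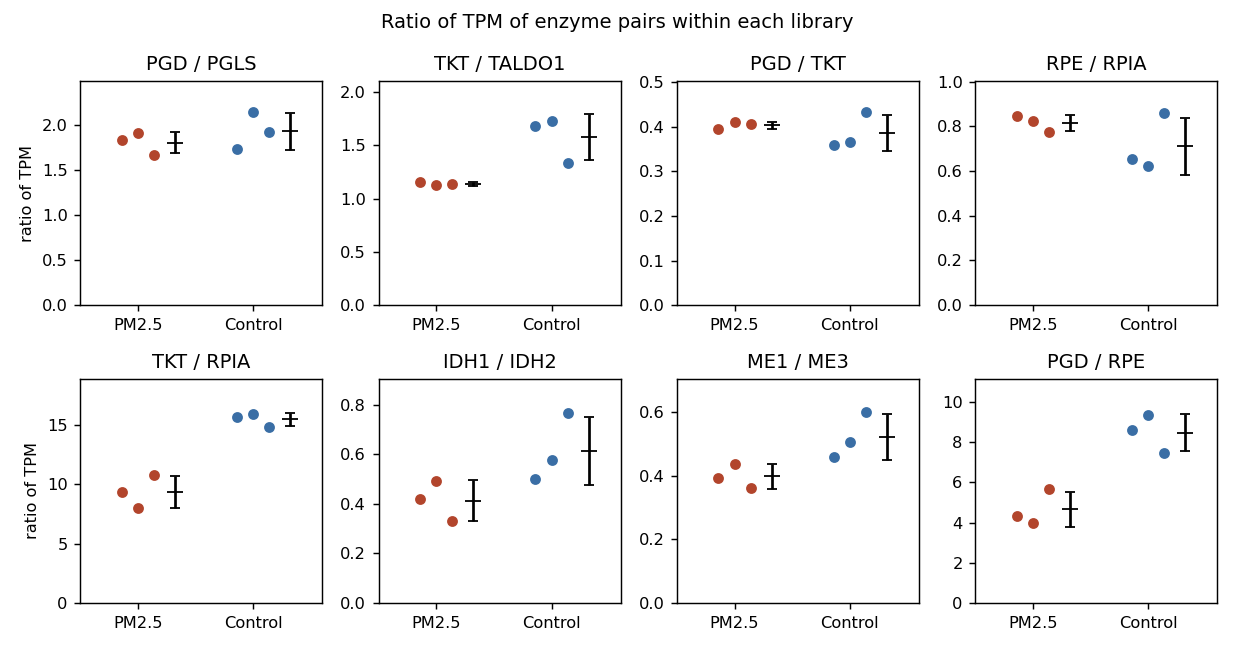
Ratio of TPM of 8 enzyme pairs within each library (y axes from 0), PM2.5 left and Control right, with mean ± SD of 3 libraries. TKT over TALDO1 is 1.12 to 1.16 in PM2.5 libraries and 1.33 to 1.72 in Control libraries. PGD over TKT overlaps, only through Control replicate 3.

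The 8 enzymes were left out of the genes compared for likeness. By the root mean square difference of centred log2 CPM over the 6 libraries, the genes most like PGD among 8451 compared were IRAK2 (0.0273), CDKN1A (0.0356) and NDUFA8 (0.0397). Those most like ME1 were EP300 (0.0323), CHD8 (0.0332) and SH3PXD2A (0.0393). Like ME1, each was highest in Control replicate 3, EP300 at 89.7 CPM against 73.2 and 73.6 CPM in Control replicates 1 and 2. Likeness without that library was not computed. EP300, CHD8 and SH3PXD2A were called lower (edgeR adjusted p = 0.022, 0.0364 and 0.0159), while ME1 was not. All of these are descriptions of likeness in 6 libraries.

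The counts for genes around the pathway stand against 15.8% of all tested genes called lower, 16.1% called higher and 31.9% called in all. Changes named as rises or falls below are on the log2 scale with their SE, each at an edgeR adjusted p of 0.0319 or less. Of 9 tested paralogs and other pentose enzymes 2 fell and 0 rose (median log2 change -0.07), a share called below that of all tested genes: H6PD, which starts an oxidative branch inside the endoplasmic reticulum, by 0.32 ± 0.11, and the ribokinase RBKS by 0.64 ± 0.21. The number called was 1 without Control replicate 2 or PM2.5 replicate 1 and 0 without PM2.5 replicate 2. Of 14 genes listed around NADPH production and NADP synthesis 0 fell and 3 rose (median 0.07). The share called was again below that of all tested genes. Whether each enzyme uses NADP or NAD was not tested here. Glutamate dehydrogenase GLUD1 rose by 0.69 ± 0.10 on the log2 scale, the mitochondrial folate enzyme MTHFD2 by 0.39 ± 0.12, and ALDH1L2 by 1.62 ± 0.54 to a mean of 1.02 CPM in PM2.5 libraries, against 0.329 CPM in Control libraries, with overlapping libraries. The number called was 1 without Control replicate 3 or PM2.5 replicate 2. Exons of opposite-strand genes overlie 33.2% of the exonic length of MTHFD2 and 13.2% of that of GLUD1.

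Among 15 genes of citrate and malate supply 7 fell and 1 rose (median -0.28). The aconitase ACO1 fell by 0.44 ± 0.09, the oxoglutarate carrier SLC25A11 by 0.51 ± 0.10 and malate dehydrogenase MDH2 by 0.36 ± 0.11, while the aspartate aminotransferase GOT1, with 19.3% of its exonic length under an opposite-strand gene, rose by 0.57 ± 0.10. The number called was 3 without Control replicate 1 or 2 or PM2.5 replicate 1 or 2. Of 23 genes listed as NADPH-using reductases and synthases 6 fell and 3 rose (median -0.19). Whether each enzyme uses NADPH or NADH was not tested here. The quinone reductase NQO1 fell by 1.85 ± 0.09, aldose reductase AKR1B1 by 0.75 ± 0.10 and AKR1C1 by 0.71 ± 0.09, and the proline synthesis enzyme PYCR1 rose by 0.81 ± 0.11. AKR1C1 has close paralogs, and exons of other genes overlie 29.7% of PYCR1 and 17.7% of NQO1, so their levels are uncertain.

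Of 14 tested glycolytic partners 3 fell and 4 rose (median 0.20). Phosphofructokinase PFKM fell by 0.52 ± 0.09 and the regulatory kinase PFKFB2 by 1.22 ± 0.14, while PFKFB3 rose by 0.50 ± 0.10 and aldolase ALDOA by 0.72 ± 0.13. Exons of other genes overlie 53.5% of the ALDOA exons, so its level is uncertain. TIGAR, a phosphatase known to steer glucose into the pentose pathway, had 4 to 18 counts in PM2.5 libraries and 2 to 6 counts in Control libraries and was not tested, and other genes overlie 45.6% of its exonic length. Of 19 genes of purine and pyrimidine synthesis 4 fell and 4 rose (median -0.08): ATIC fell by 0.39 ± 0.10, APRT by 0.42 ± 0.11 and UMPS by 0.49 ± 0.15, and PAICS rose by 0.38 ± 0.09. The number called was 3 without Control replicate 1 or PM2.5 replicate 1 and 5 without PM2.5 replicate 3.

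Of 16 regulators 2 fell and 2 rose (median 0.11), a share called below the 31.9% of all tested genes, so the count is no result about regulators. NFE2L2, which encodes NRF2, did not pass, at 66.6, 71.8 and 49.1 CPM in PM2.5 libraries and 55.1, 51.6 and 48.7 CPM in Control libraries (edgeR adjusted p = 0.109), and 20.9% of its exonic length lies under other genes, 17.6% on the same strand. KEAP1, whose product marks NRF2 for degradation, had 37.8, 29.5 and 38.3 CPM in PM2.5 libraries, against 66.9, 56.1 and 66.6 CPM in Control libraries, a fall of 0.84 ± 0.12 on the log2 scale. BACH1, a repressor that binds the same element, had 70.2, 73.5 and 53.9 CPM in PM2.5 libraries, against 33.3, 31.9 and 38.4 CPM in Control libraries, a rise of 0.93 ± 0.12. The small partner protein MAFK, with 18.1% of its exonic length under an opposite-strand gene, rose by 0.73 ± 0.10. Of 15 antioxidant response genes 8 fell and 1 rose (median -0.68), those with the smallest p being HMOX1 (-3.99 ± 0.12), FTH1 (-2.03 ± 0.12), NQO1 and FTL (-1.61 ± 0.14). FTH1 and FTL have many near-identical processed copies, and exons of BEST1 on the opposite strand overlie 62.4% of FTH1, so the level of each is uncertain.

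**Figure D5:**
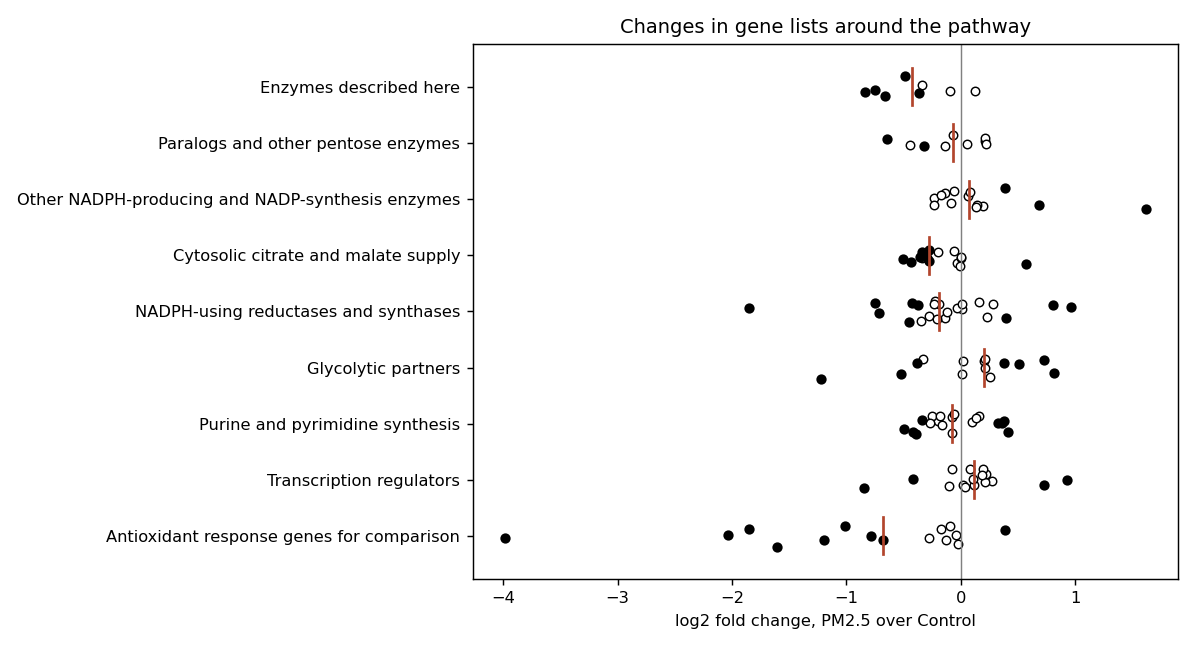
Log2 fold change, PM2.5 over Control (x axis), of every tested gene in each list (rows); filled points passed edgeR's test, open points did not, and red bars are medians. The 8 enzymes have a median of -0.42, between citrate and malate supply at -0.28 and the antioxidant response genes at -0.68.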

How the data were processed

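The authors deposited raw counts per gene for 6 libraries, per the file headers; GRCh38 was the build, per the submitters' processing notes. Which aligner, counter and strand setting were used is not given in the sources at hand. All 58735 identifiers matched GENCODE 29 in position, and the deposited gene lengths, an other unit given by the authors in bases, equal its union of exons. Libraries were grouped by treatment label, and every within-group pair differed beyond sampling noise (chi-square per degree of freedom 5.85 to 37.2). Counts were tested in R 4.3.3 with edgeR 4.0.16 (filterByExpr with minimum count 10 and minimum total count 15, TMM factors 0.962 to 1.047, two-sided quasi-likelihood test, no covariate) and Benjamini-Hochberg adjusted across 14975 genes at a threshold of 0.05. Each SE was taken from the log2 change and F (change over root F). Alternatives used DESeq2 1.42.0, limma 3.58.1, other filters and scaling, a replicate block and each library left out. Permutation tests used scipy 1.17.1.

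The enzymes, the 8 lists around them and the rule for named genes (up to 4 called genes with the smallest p per list, 8 genes in any case, and the 3 genes most like PGD and ME1 with a mean of at least 10 CPM, on log2 of CPM plus 0.5) were chosen with earlier results of these data known. The result of 1 listed gene is not reported here.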

Additional observations from a re-analysis of the deposited data

How the results depend on the processing

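Under 12 alternatives, the falls of PGD, PGLS, TKT and IDH1 kept their direction and stayed past the threshold, and RPIA and RPE stayed short of it. TALDO1 lost its call in 1 of them, without PM2.5 replicate 1, at -0.36; with each library left out its log2 change ran from -0.40 to -0.32. ME1 passed by DESeq2, at -0.33. Over all genes, 1797 to 2600 were higher and 1448 to 2680 lower with a library left out, the 1448 without PM2.5 replicate 1 against 2365 with all. With a library left out, the number called was 0 to 2 for paralogs and other pentose enzymes. It was 1 to 3 for the list around NADPH production and NADP synthesis. For citrate and malate supply it was 3 to 9, and for purine and pyrimidine synthesis 3 to 7. The reason for these shifts was not tested. No pairing by replicate number was seen. Same-numbered libraries deviated together with correlations of 0.00749, -0.0486 and -0.158, and no library correlated best with its own number. With 3 libraries a group these values cannot exclude that same-numbered cultures were handled together. With the replicate block, 1951 genes were higher and 1826 lower, and all 5 called enzymes kept their calls, while 1 gene of the paralog list, 5 genes of citrate and malate supply and 5 of purine and pyrimidine synthesis were called. The longer form of the promoter element was found in 0 of the 8 enzymes. Lengths from the union of exons equal the deposited ones, so that alternative could not move the TPM. The intervals of RPE and RPIA span 0.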
